A study of Homo sapiens with 6 samples.

Results

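Contact maps of 2 colorectal cancer lines, SW480 and SNU-C1, were set against those of HCC1954, a breast cancer line, and OE33, an esophageal adenocarcinoma line, to find parts of the genome whose folding put both colorectal maps on one side of both other maps. These 4 maps, of 6 in the series, were chosen by the cell line in the sample labels, and the SW480 map taken was the one without a replicate number, which is the sum of the 2 SW480 replicate maps. All are established human cancer lines for which the labels name no treatment, and each was grown as 1 line. With 2 lines a side, the tissue of origin and the line cannot be told apart, and the smallest two-sided p that an exact permutation test could give is 0.333, so no test between the sides was made. The study's methods say that Hi-C was done in duplicate, but no source used here says whether the map of SNU-C1, of HCC1954 or of OE33 joins its duplicates.

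In situ Hi-C cuts crosslinked chromatin, here with MboI, and joins ends that lie close together in the nucleus, so that the number of read pairs joining 2 positions reports how often they met. On the scale of megabases, chromatin falls into an A compartment, gene-rich and open, and a B compartment, gene-poor and closed, and a region meets others of its own compartment more often. On a smaller scale, boundaries between topologically associating domains hold back contacts across them, many of them at sites bound by CTCF. Which lineage genes lie in A differs between cell types, and these are known to include the loci of transcription factors that define a tissue. Hi-C measures no RNA, so the labelled tissue of each line could not be checked against marker expression, and everything said of a gene below is about the position of the 200-kb block or 40-kb bin that holds its start.

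The maps of the colorectal lines were the deeper ones. Between usable bins of chromosomes 1 to 22, there were 122322577 read pairs in SW480 and 107344023 in SNU-C1, and 87308522 in HCC1954 and 83903720 in OE33, so depth moved with the side. A bin was usable where its coverage was at least 0.25 of the median in all 4 maps, which held for 62198 of 72036 bins. The compartment score of a 200-kb block was the log2 ratio of its contacts with A blocks to its contacts with B blocks, each relative to the value expected from distance, centred on the median of its map and divided by the standard deviation (SD) of its map. Before that division the SD was 0.93 in SW480 and 0.87 in SNU-C1 against 0.76 in HCC1954 and 1.24 in OE33 on the log2 scale, so the strength of compartments differed more within the second side than between the sides.

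Over 12512 blocks, the score of SW480 correlated with that of SNU-C1 at r = 0.888 and with that of OE33 at r = 0.881. HCC1954 and OE33 correlated at r = 0.883, SNU-C1 and HCC1954 at r = 0.821, and the SW480 replicates at r = 0.995. The blocks of a map share neighbours, depth and base composition, and these values are descriptions across blocks. SW480 was thus about as close to OE33 as to SNU-C1. The SW480 replicates differed by a median of 0.064 SD units, and the 95th percentile of their difference, 0.204, was the smallest gap between the sides that was counted. A gap is the distance between the nearest maps of opposite sides.

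By this rule both colorectal maps were higher, towards A, in 1664 blocks (13.3% of the blocks tested) and lower in 895 (7.15%). The blocks nearest the limit in the higher direction had gaps of 0.2040 inside it and 0.2039 outside it, so blocks near the limit are not distinct from those left out. The median gap of the counted blocks was 0.35 in the higher and -0.43 in the lower direction. The split into higher and lower depended on where the zero of each map was put. With scores centred on the mean the counts were 1182 higher and 1206 lower, with ranks in place of scores 719 and 830, and with each map's own eigenvector 961 and 726, so no excess of one direction is described here. A switch, with both colorectal scores above 0 and both others below 0, was found in 189 blocks (1.51%), and the reverse in 255 blocks (2.04%). Read pairs thinned to the depth of OE33 gave 188 and 248 switches.

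**Figure D1:**
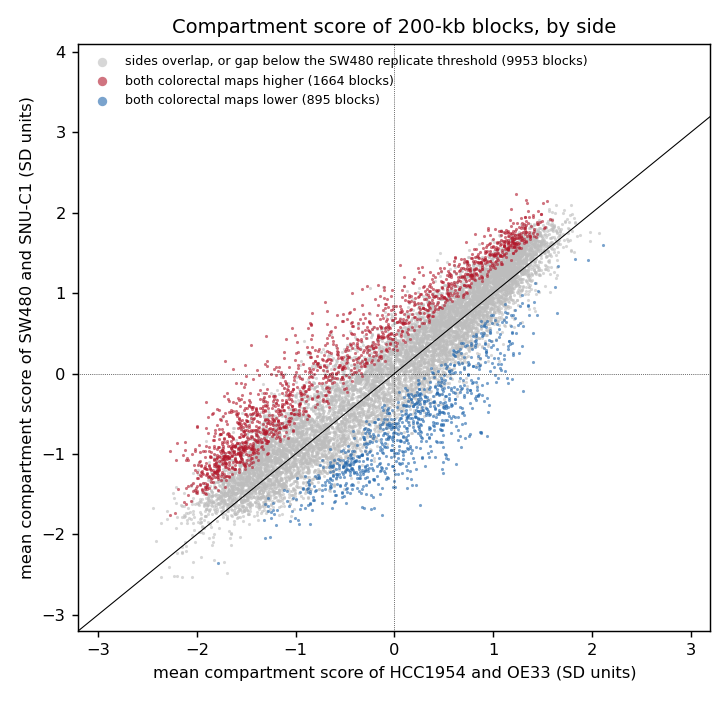
Mean compartment score of the colorectal maps against that of HCC1954 and OE33 for 12512 blocks of 200 kb, both axes in SD units, with the diagonal marking equal scores. The 1664 blocks counted as higher and the 895 counted as lower lie along the whole range of scores, and most blocks stay near the diagonal in grey.

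Of the genes of the intestinal lineage, 28 had their start in a usable block. Of these, 5 lay in blocks that were higher in both colorectal maps and 0 in blocks that were lower, where 12.8% of all 17528 protein-coding gene starts lay in higher blocks and 4.03% in lower ones. These shares also depend on the zero of each map, being 4.86% and 4.83% with ranks and 8.36% and 5.85% with scores centred on the mean, and under both of these the intestinal list had 4 higher and 0 lower genes. The median difference between the side means was 0.32 for the list and 0.16 for all protein-coding genes, and without SNU-C1 it was 0.15 and 0.084. The rule asks less with 1 line left out, and 22 of the 28 genes were then higher without SW480 (39.2% of all gene starts) and 12 without OE33 (34.1%). Without SNU-C1 6 were higher (19.1%) and without HCC1954 7 (20.4%), which is closer to the share of all gene starts. The list of 12 neuronal genes had the same median of 0.32. FABP1, the fatty acid binding protein of enterocytes and hepatocytes, was in the only switched block of the list, at 0.61 in SW480 (0.60 in replicate 1 and 0.61 in replicate 2) and 0.76 in SNU-C1, against -0.18 in HCC1954 and -0.13 in OE33. CDX2, the homeobox factor that sets intestinal identity, scored 0.74 in SW480 and 1.12 in SNU-C1, and 0.21 in HCC1954 and 0.40 in OE33. Its block thus lay on the A side of all 4 maps and reached farther in the colorectal ones, and its coverage in SNU-C1 was 2.52 times the median of that map. GPA33, a surface antigen of intestinal epithelium, scored 0.83 in SW480 and 0.73 in SNU-C1, and 0.019 in HCC1954 and 0.24 in OE33. VIL1, the brush border protein villin, and MUC13, a membrane mucin, lay deep in A in every map, with scores between 1.15 and 1.84. FABP1, CDX2 and GPA33 kept their call under all 11 other ways of scoring the blocks that were tried, whereas VIL1 kept it under 9 and MUC13 under 3.

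Genes that Wnt signalling switches on lay higher in the colorectal maps in 5 of 13 cases and lower in 0, beside the 12.8% and 4.03% of all gene starts given above, with a median difference of 0.49. That median was 0.26 without HCC1954 and 0.28 with each map's own eigenvector. Without SW480 5 were higher and 2 lower, without SNU-C1 8 and 1, without HCC1954 5 and 0, and without OE33 7 and 0. In the same order, 39.2% and 9.03%, 19.1% and 10.7%, 20.4% and 9.43%, and 34.1% and 9.41% of all gene starts were. With each map's own eigenvector 3 were higher and 0 lower (6.03% and 3.17% of all gene starts). In the crypt, Wnt signals keep stem cells dividing, and most colorectal cancers carry this pathway in an active state. LGR5, the receptor that marks crypt stem cells, scored -0.040 in SW480 and 0.44 in SNU-C1, against -0.76 in HCC1954 and -0.93 in OE33. Coverage of the LGR5 block was 1.43 and 1.44 times the median in SW480 and SNU-C1, against 1.02 in HCC1954 and 1.15 in OE33. The part of coverage in that score was not tested. LEF1, a factor that binds DNA together with beta-catenin, scored 1.47 in SW480 and 0.78 in SNU-C1, against 0.20 and 0.17 in HCC1954 and OE33. AXIN2, a feedback inhibitor of the pathway, scored 0.70 in SW480 and 1.02 in SNU-C1 against -0.42 in HCC1954 and 0.26 in OE33. These 3 blocks were called under all 11 other ways of scoring, SP5 under 9 and CCND1 under 6. The block of SP5 scored 1.43 in SW480 and 1.19 in SNU-C1, against 0.66 in HCC1954 and 0.73 in OE33. CCND1, which encodes cyclin D1, had the most unequal coverage of these 5 called blocks, 2.10 times the median in HCC1954 and 0.67 times in SNU-C1.

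The HOX genes, which give cells their position along the body axis, shared 8 blocks, and only those of the HOXD cluster separated the sides. Of 39 HOX genes, 9 were in higher blocks and 0 in lower ones, all 9 in 2 neighbouring blocks on chromosome 2, where 12.8% and 4.03% of all gene starts lay in such blocks. Leaving out a line cannot take a gap away, and 7 HOX genes were lower without SW480 (9.03% of all gene starts) and 6 without OE33 (9.41%). The block with HOXD8 to HOXD13, the posterior end of the cluster, switched, at 0.34 in SW480 and 0.32 in SNU-C1 against -0.50 in HCC1954 and -0.26 in OE33. The next block, with HOXD1, HOXD3 and HOXD4, scored 0.83 in SW480 and 0.46 in SNU-C1 against -0.059 in HCC1954 and 0.12 in OE33. The gap of the first block was kept under all 11 other ways of scoring and that of the second under 10. With ranks in place of scores, 6 HOX genes were in higher blocks and 6 in lower ones, beside 4.86% and 4.83% of all gene starts. Relative coverage of the first block ran from 1.01 to 1.30 over the 4 maps.

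Some factors of the mammary and foregut lineages lay in blocks of the other direction, while most did not separate the sides. Of 20 mammary genes, 3 were in blocks that were lower in both colorectal maps and 1 in a higher block, where 4.03% and 12.8% of all gene starts were. Without SNU-C1 8 were lower and 2 higher (10.7% and 19.1% of all gene starts), and without SW480 4 and 6 (9.03% and 39.2%). Without HCC1954 4 were lower and 2 higher (9.43% and 20.4%), and without OE33 4 and 4 (9.41% and 34.1%). The median difference of the list was -0.061, against 0.16 for all protein-coding genes, and it was above 0 without SW480 (0.20), without HCC1954 (0.086) and with each map's own eigenvector (0.063). GATA3, the factor that directs luminal cells of the breast, scored -0.19 in SW480 (-0.20 and -0.18 in its replicates) and -0.54 in SNU-C1, against 0.67 in HCC1954 and 0.55 in OE33. TFAP2A, an AP-2 factor of breast and surface epithelia, scored -0.32 in SW480 and -0.38 in SNU-C1, and 0.28 in HCC1954 and 0.52 in OE33. Both blocks switched and were called under all 11 other ways of scoring. Coverage of the block of TFAP2A was 0.94 times the median in each colorectal map, 1.94 times in HCC1954 and 1.45 times in OE33, and its part in the score was not tested. FOXA1, a factor that opens closed chromatin for the estrogen receptor, scored -0.65 in SW480 (-0.53 and -0.76 in its replicates) and -0.39 in SNU-C1 against 0.29 in HCC1954 and -0.025 in OE33, and it was called under 10. HCC1954 had 2.16 times the median coverage there, and the other maps 0.97 to 1.13 times. The exception was AREG, a ligand of the EGF receptor, at 1.56 in SW480 and 1.67 in SNU-C1 against 0.74 in HCC1954 and 1.18 in OE33. It was called under 9 of the 11 other ways of scoring.

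Of 22 genes of the foregut and squamous list, 2 were in lower blocks and 1 in a higher one, beside 4.03% and 12.8% of all gene starts. Without SW480 7 were higher and 3 lower (39.2% and 9.03% of all gene starts), and without OE33 9 and 3 (34.1% and 9.41%). Without SNU-C1 2 were higher and 4 lower (19.1% and 10.7%), and without HCC1954 1 and 2 (20.4% and 9.43%). With ranks both counts were 0. The median difference was 0.065, against 0.16 for all protein-coding genes, and it ranged from -0.23 with ranks to 0.19 without SW480. SOX2, a factor of the embryonic foregut, scored -0.0014 in SW480 and -0.89 in SNU-C1, against 0.31 in HCC1954 and 0.26 in OE33, so that SW480 lay at the border between compartments. PAX9, a factor of pharyngeal endoderm and esophagus, scored -0.063 in SW480 and -0.73 in SNU-C1, and 0.77 in HCC1954 and 0.27 in OE33. Each was called under 10 of the 11 other ways of scoring, and with ranks neither was. TRIM29, expressed in squamous epithelia, went the other way with 1.38 and 1.63 in the colorectal maps against 1.09 in HCC1954 and 0.996 in OE33. It was called under 8 of the 11 other ways. Coverage of the PAX9 block was 0.94 and 0.93 times the median in SW480 and SNU-C1, against 1.67 in HCC1954 and 0.97 in OE33. For the TRIM29 block it was 1.22 and 1.08 against 0.89 and 1.05, in the same order. The part of coverage in these scores was not tested.

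**Figure D2:**
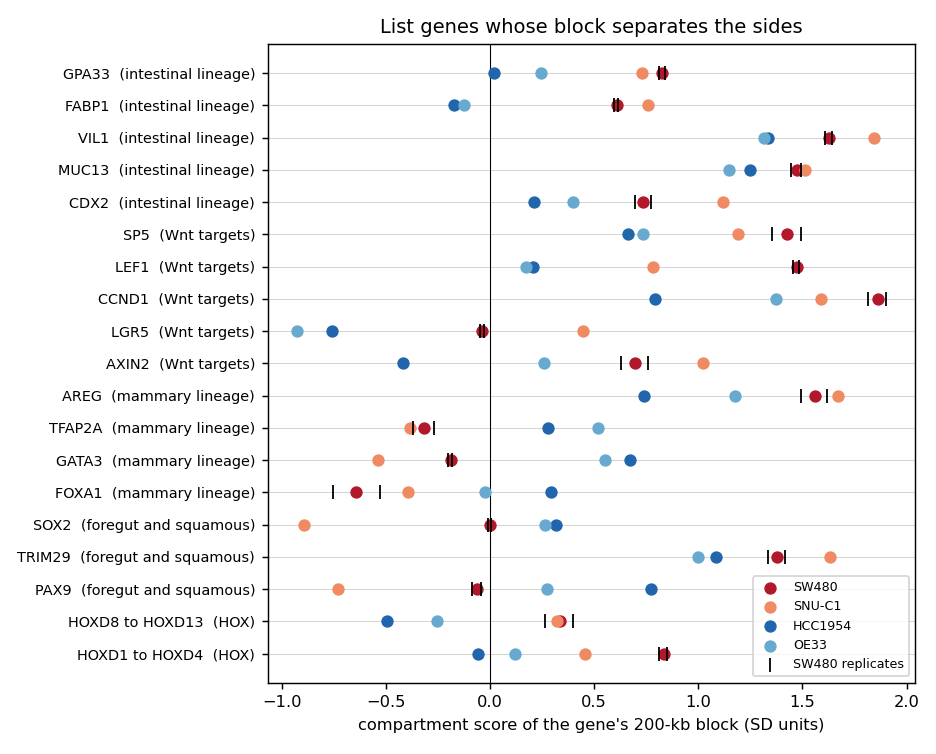
Compartment score, in SD units, of the block that holds each gene of the intestinal, Wnt, mammary, foregut and HOX lists whose block separated the sides, with 1 point a map and ticks for the SW480 replicates. The colorectal points lie right of the others at FABP1, CDX2, LGR5 and HOXD8 to HOXD13 and left of them at GATA3, TFAP2A and FOXA1, by more than the distance between the replicate ticks.

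Further lists were measured the same way, and the shares to read them against are again 12.8% of all gene starts in higher and 4.03% in lower blocks, with a median difference of 0.16. Of 16 epithelial and mesenchymal genes 0 were in separated blocks, and their median difference was 0.021. Of 12 housekeeping genes 3 were in higher blocks (GAPDH and TBP among them) and 0 in lower ones, with a median difference of 0.23. Of 12 neuronal genes 2 were higher (GABRB1 and GRIN2B) and 0 lower, with the median of 0.32 given above. With 1 line left out, 3 to 9 neuronal genes were higher and 0 to 2 lower, and 3 to 7 housekeeping genes higher and 0 to 2 lower. All gene starts then ranged from 19.1% to 39.2% higher and from 9.03% to 10.7% lower. GABRB1 kept its call under 3 of the 11 other ways of scoring. All 3 housekeeping genes lost the call with ranks and with mean centring. GRIN2B, a subunit of the NMDA receptor, kept it under all 11, at 0.29 in SW480 and 0.97 in SNU-C1 against -0.18 in HCC1954 and -0.45 in OE33. Coverage of the GRIN2B block was 1.60 and 1.46 times the median in SW480 and SNU-C1, against 0.53 in HCC1954 and 1.04 in OE33. The part of coverage in that score was not tested. In the neighbourhood of ERBB2 5 of 10 genes were in higher blocks, which were 2 of the 4 blocks of the list. That count was 0 with each map's own eigenvector, and it was 2 with stricter usable bins, without scaling by the SD and with a gap at the 99th percentile. Without SW480 it was 10, and it stayed at 5 with any other line left out. The block of CDK12 and MED1 there had 0.0466 times the coverage in the colorectal maps that it had in the others. Its coverage was 0.95 and 0.80 times the median in SW480 and SNU-C1, against 32.0 in HCC1954 and 5.47 in OE33. The part of that difference in the score was not tested.

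Coverage moved with the compartment calls. Relative coverage is the number of read pairs of a block over the median of its map, and it follows both the copy number of the block and how well its chromatin is cut. Among blocks counted as higher, 33.7% also had higher coverage in both colorectal maps, against 18.1% of all blocks, and among blocks counted as lower 35.6% had lower coverage in both, against 12.2% of all. In the 8717 blocks whose coverage overlapped between the sides, 11.6% were higher and 6.24% lower, with 120 and 159 switches. In the 4712 blocks whose coverage spanned at most 1.5-fold over the 4 maps, 11.4% were higher and 6.62% lower. Where coverage was higher in both colorectal maps, 24.7% of 2265 blocks were higher and 1.41% lower in score, and where it was lower in both, 6.14% of 1530 blocks were higher and 20.8% lower. The part of coverage in the calls was not tested.

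The separated blocks were close to all blocks in base composition. Their median GC content was 39.8% in the higher and 38.6% in the lower blocks, against 39.95% over all blocks. A gene start lay in 49.2% of the higher and 40.8% of the lower blocks, against 54.2% of all blocks. Blocks that switched to A in the colorectal maps held a gene start in 60.3% of cases and those that switched to B in 45.9%. The higher blocks formed 674 runs of neighbouring blocks and the lower ones 357, and the longest runs had 27 and 12 blocks.

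For a look at the sequence at gene starts, the promoters of 4 lineage genes above and of SLC5A8, which lies in the run described next, 250 bases before and 50 bases after the RefSeq start, are given 5′ to 3′ with every CpG in capitals. They were read from the RefSeq table of build GRCh38.p14 and placed on GRCh37, the build of the bins, by their only exact match. The first 3 belong to blocks that were higher in the colorectal maps and the last 2 to blocks that were lower.
FABP1 (chr2:88427532-88427831, minus strand): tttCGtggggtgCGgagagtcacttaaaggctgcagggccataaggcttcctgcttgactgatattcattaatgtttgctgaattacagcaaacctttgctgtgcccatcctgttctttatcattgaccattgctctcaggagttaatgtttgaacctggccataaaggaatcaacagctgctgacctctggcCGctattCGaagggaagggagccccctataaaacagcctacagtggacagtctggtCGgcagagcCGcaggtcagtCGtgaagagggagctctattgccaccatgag
SLC5A8 (chr12:101603967-101604266, minus strand): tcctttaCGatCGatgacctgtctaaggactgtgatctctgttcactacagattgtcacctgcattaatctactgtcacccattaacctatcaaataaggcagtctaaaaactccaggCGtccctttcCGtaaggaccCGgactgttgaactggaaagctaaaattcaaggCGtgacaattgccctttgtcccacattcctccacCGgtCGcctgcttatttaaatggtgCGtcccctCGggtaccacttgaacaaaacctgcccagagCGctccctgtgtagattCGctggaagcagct
CDX2 (chr13:28543403-28543702, minus strand): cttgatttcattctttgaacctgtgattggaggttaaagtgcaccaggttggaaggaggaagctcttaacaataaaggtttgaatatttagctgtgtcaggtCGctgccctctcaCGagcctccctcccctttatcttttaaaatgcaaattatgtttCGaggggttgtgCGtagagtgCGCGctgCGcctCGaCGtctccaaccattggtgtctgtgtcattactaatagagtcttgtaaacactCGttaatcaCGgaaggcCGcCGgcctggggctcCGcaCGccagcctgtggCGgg
GATA3 (chr10:8095354-8095653, plus strand): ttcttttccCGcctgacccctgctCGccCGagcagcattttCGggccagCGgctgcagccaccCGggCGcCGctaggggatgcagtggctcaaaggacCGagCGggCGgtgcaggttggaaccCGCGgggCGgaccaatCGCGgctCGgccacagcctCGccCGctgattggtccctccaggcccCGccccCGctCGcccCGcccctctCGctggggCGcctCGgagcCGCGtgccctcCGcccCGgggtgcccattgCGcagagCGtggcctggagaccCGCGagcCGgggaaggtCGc
FOXA1 (chr14:38064405-38064704, minus strand): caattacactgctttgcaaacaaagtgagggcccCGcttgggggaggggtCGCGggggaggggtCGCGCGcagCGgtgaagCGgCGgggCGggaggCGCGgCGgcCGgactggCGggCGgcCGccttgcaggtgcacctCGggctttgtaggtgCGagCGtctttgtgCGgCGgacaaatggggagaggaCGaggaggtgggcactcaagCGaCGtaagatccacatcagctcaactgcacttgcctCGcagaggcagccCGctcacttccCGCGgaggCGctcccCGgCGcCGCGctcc
FABP1 held 7 CpGs, SLC5A8 12 and CDX2 16, whereas FOXA1 held 34 and GATA3 36 at the richest of its 6 RefSeq starts, which range from 5 to 36. The promoters of HOXD13, in a higher block, and SOX2, in a lower one, held 24 and 20, so the directions overlapped. Over 35116 promoters of this length the median was 14, and the quartiles were 4 and 28. Of these 7 promoters, those of FABP1 and HOXD13 held TATAAA on either strand, as did 11.5% of all promoters. With so few promoters these letters describe the genes and do not set the directions apart.

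The largest compartment differences lay in runs of several blocks. The run with the largest gap in the higher direction, chr12:101000001-101800000, holds ANO4, SLC5A8 and UTP20. In its block at 101.2 Mb SW480 scored 0.51 (0.52 and 0.50 in its replicates) and SNU-C1 0.42, against -1.44 in HCC1954 and -1.17 in OE33, a gap of 1.59. Coverage of that block followed the side, at 1.42 times the median in SW480 and 1.14 in SNU-C1 against 0.69 in HCC1954 and 0.92 in OE33. SLC5A8 encodes a transporter by which colon epithelium takes up short-chain fatty acids, and its own block scored 0.074 in SW480 and 0.23 in SNU-C1 against -0.81 and -0.57 in HCC1954 and OE33. On chromosome 8, a run of 11 blocks from 120.8 to 123 Mb around SNTB1, MRPL13 and MTBP reached 0.92 in SW480 and 0.87 in SNU-C1, with -0.77 in HCC1954 and -0.64 in OE33. Its coverage was 2.10 times the median in SNU-C1 and 1.76 times in HCC1954, so it did not follow the side.

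Further runs were higher in the colorectal maps. MYCN, a MYC family factor, was the only protein-coding gene start in chr2:15800001-16800000, where the largest gap was 1.31. Its own block scored 0.50 in SW480 and 0.42 in SNU-C1 against -0.68 in HCC1954 and -0.57 in OE33. CTNNB1, which encodes beta-catenin, the effector of Wnt signalling, lies with ULK4 and TRAK1 in a run of 9 blocks at chr3:41000001-42800000. The block of CTNNB1 scored 0.87 in SW480 and 1.08 in SNU-C1 against 0.13 in HCC1954 and 0.090 in OE33. Coverage of the peak block of the MYCN run was 1.45 and 1.47 in SW480 and SNU-C1 against 0.76 in HCC1954 and 1.04 in OE33. For the CTNNB1 run it was 1.33 and 1.12 against 0.99 and 0.70, in the same order. On chromosome 6, EPHA7, a receptor of ephrins, was the only gene start in a run of 15 blocks that stayed in B at its own block in all maps, at -0.62 and -0.69 in SW480 and SNU-C1 and at -1.53 and -1.57 in HCC1954 and OE33. DSCAM, a cell adhesion molecule, lies in a run on chromosome 21 with PCP4 and IGSF5, where OE33 had 0.52 times the median coverage. For HCC1954 the study reports a chromothripsis-like event over this chromosome, and its part in the score was not tested. The other runs of this direction lie at RAB11FIP2, FAM204A and PRLHR, at F13A1, LY86 and NRN1, at OLFM1, PPP1R26 and FCN1, and at GOLIM4, SERPINI1 and PDCD10, with gaps of 1.13 to 1.32. Peak blocks of the runs at EPHA7, PCP4, F13A1 and GOLIM4 also had higher coverage in both colorectal maps, and those at RAB11FIP2 and OLFM1 did not. The part of coverage in these scores was not tested. In the peak block of the run at OLFM1, which starts at 138 Mb next to the block of the gene's start, the SW480 replicates were farthest apart, at 0.98 and 1.23, which is still small against the gap of 1.24.

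In the other direction the largest gap of all, -1.76, was on chromosome 15. The study reports chromothripsis over the whole of that chromosome in SNU-C1, and its part in these scores was not tested. The block at 36.6 Mb scored -1.53 in SW480 (-1.52 and -1.54 in its replicates) and -1.74 in SNU-C1, against 0.28 in HCC1954 and 0.23 in OE33. It lies in a run of 8 blocks, chr15:35800001-37400000, with CDIN1, MEIS2 and DPH6. MEIS2 is a homeobox partner of HOX proteins, and its own block scored -1.19 and -1.14 in the colorectal maps, -0.35 in HCC1954 and 0.090 in OE33. Coverage of the peak block was 0.80 times the median in SW480 and 0.73 in SNU-C1, against 1.80 in HCC1954 and 0.86 in OE33. It was thus lower in both colorectal maps, and its part in the score was not tested.

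The second run, chr10:8000001-9400000, holds GATA3 as its only protein-coding gene start and extends over 7 blocks, mostly of the gene-free stretch beyond it. The largest gap was in the block that follows that of GATA3, with -0.75 in SW480 and -0.69 in SNU-C1, and 0.93 in HCC1954 and 0.81 in OE33. Coverage there was 0.91, 0.93, 0.91 and 1.31 times the median in the same order. From the block of GATA3 on, 6 blocks in a row scored between 0.19 and 1.09 in HCC1954 and OE33, and the same blocks scored between -1.32 and -0.19 in SW480 and SNU-C1.

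The remaining lower runs were at ADAM29 and GLRA3, at METTL15 and KIF18A, at ID4, at GJE1, NMBR and VTA1, at LPAR1, OR2K2 and ECPAS, at VEGFC, SPCS3 and ASB5, at PAPPA and at COL5A2, WDR75 and COL3A1, with gaps of -1.22 to -1.46. VEGFC, the growth factor of lymphatic vessels, scored -1.19 in SW480 and -0.93 in SNU-C1 against 0.79 in HCC1954 and 0.28 in OE33. Coverage of that block was 1.80 in HCC1954 and 0.39 in OE33, on either side of the colorectal values of 0.69 and 0.61. ID4, an inhibitor of helix-loop-helix factors known from mammary epithelium, scored -0.79 in SW480 and -0.57 in SNU-C1 against -0.17 in HCC1954 and -0.00092 in OE33. COL3A1, a fibrillar collagen, scored -1.24 and -1.15 in the colorectal maps against -0.42 in HCC1954 and -0.22 in OE33, which is B in all 4. Peak blocks of the runs at METTL15, ID4 and COL5A2 had lower coverage in both colorectal maps. Those at ADAM29, GJE1, LPAR1, VEGFC and PAPPA did not. The part of coverage in these scores was not tested. All 20 named runs kept their direction and their gap past the limit under each alternative that scored them, ranks and mean centring included.

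**Figure D3:**
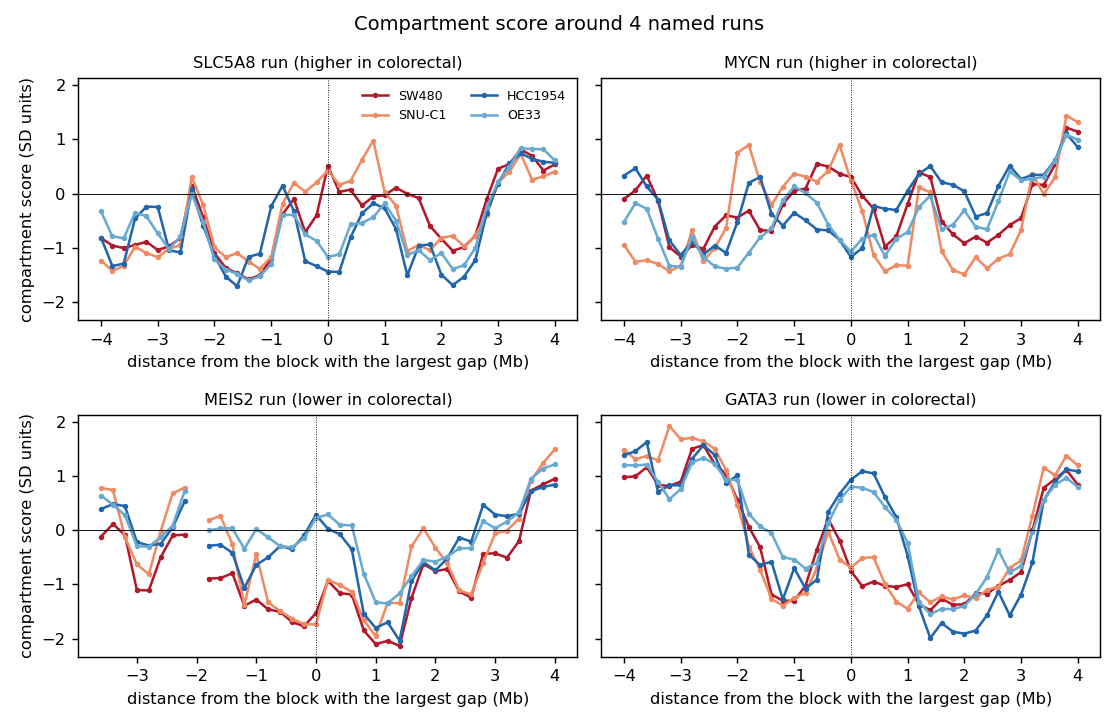
Compartment score in SD units within 4 Mb of the block with the largest gap of 4 runs, 1 line a map, with the distance from that block in Mb on the horizontal axis. At MEIS2 and GATA3 both red lines fall below both blue lines over runs of 1600 kb and 1400 kb, and again in places outside these runs. At SLC5A8 and MYCN the red lines rise above the blue ones.

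Insulation was read from the same maps at 40 kb, from contacts between the 1 Mb before a bin and the 1 Mb after it. The score was the log2 of these contacts over their expected value, centred on the median of each chromosome. A lower score means fewer contacts across the bin. Of 59426 bins scored in all maps, 4507 were higher in both colorectal maps (7.58%) and 4987 lower (8.39%), by a gap of at least 0.061, the 95th percentile of the difference between SW480 replicates. Across bins the SW480 replicates correlated at r = 0.996, SW480 and SNU-C1 at 0.912 and HCC1954 and OE33 at 0.884, and the 4 pairs across the sides from 0.864 (SNU-C1 and OE33) to 0.910 (SW480 and HCC1954). The compartment score uses contacts at 2 Mb or more and the insulation score contacts up to 2 Mb, and they moved together. In blocks with a higher compartment score, 14.4% of bins had a higher insulation score, against 7.59% of the bins in all scored blocks, and in blocks with a lower one, 21.1% had a lower insulation score, against 8.39%.

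The largest insulation gap, 1.04, was on chromosome 17 near CSF3, THRA and MED24, where SW480 scored -0.43, SNU-C1 -0.65, HCC1954 -1.70 and OE33 -1.81. OE33 had 14.9 times the median coverage in that bin, whereas HCC1954 had 0.95 times. For OE33 the study reports an inversion on this chromosome that spans ERBB2 and formed a new domain. The part of coverage and of that inversion in this gap was not tested. The second largest gap was at a boundary beyond GATA3, at chr10:9360001-9400000, in a run of 14 bins without a protein-coding gene start. There SW480 scored -0.64 (-0.62 and -0.65 in its replicates) and SNU-C1 -0.80, against -1.88 in HCC1954 and -1.72 in OE33. All 4 maps had a minimum at that place, and it was deeper in the lines whose GATA3 run lay in A. Coverage ran from 0.80 to 1.24 there. GATA3 itself lay in a bin that was higher in the colorectal maps, at 0.29 and 0.32 against 0.15 in HCC1954 and 0.052 in OE33.

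Other runs of this direction were at HDAC2 and MARCKS on chromosome 6 and at SERPINB8, HMSD and SERPINB10 on chromosome 18. Near HDAC2, a histone deacetylase, and MARCKS, a substrate of protein kinase C, the bin with the largest gap scored -0.70 in SW480 and -0.77 in SNU-C1, and -1.31 in HCC1954 and -1.39 in OE33. That bin was on the flank of a minimum of all 4 maps, which reached -1.09 in SW480 and -1.41 in SNU-C1 against -1.87 in HCC1954 and -1.79 in OE33 within 120 kb. Coverage of that bin was between 1.32 and 1.49 in all 4 maps. At the SERPINB cluster, which encodes protease inhibitors of the clade B family, the scores were -1.07 in SW480 and -0.65 in SNU-C1 against -1.66 in HCC1954 and -1.78 in OE33. FOXA1 lay in a bin of the same direction, at 0.0078 in SW480 and 0.27 in SNU-C1 against -0.27 in HCC1954 and -0.32 in OE33.

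In the other direction, CNTNAP2, a neurexin-like gene that is among the longest in the genome, stood first. At chr7:145760001-145800000 SW480 scored -0.26 and SNU-C1 -0.20, a minimum, while HCC1954 was at 0.24 and OE33 at 0.54. Coverage there was 1.23 and 1.25 in the colorectal maps and 0.86 and 0.59 in HCC1954 and OE33. A minimum between CENPF and PTPN14 on chromosome 1 was deeper in the colorectal maps, at -0.78 in both, than in HCC1954 at -0.15 and OE33 at -0.35. At PRKCQ the scores were -0.45 and -0.43 against 0.0034 and 0.015, and at PTPN13 and MAPK10 -0.92 and -0.77 against -0.37 and -0.18. Of 11 neuronal genes with a scored bin 4 were lower, CNTNAP2, CTNNA2 and SLC17A6 among them, and 1 was higher, SNAP25. Over all protein-coding gene starts 5.25% lay in lower bins and 7.25% in higher ones. Coverage of these 3 named blocks was higher in the colorectal maps, with colorectal to other ratios of 1.48 to 1.89. Of 27 intestinal genes 2 were higher (HNF4A and TFF3) and 0 lower, and of 21 foregut and squamous genes 4 were higher (CLDN18, SOX2, TFF1 and TFF2) and 0 lower. TFF1 and TFF2 share a bin, next to that of TFF3, so these are 1 locus.

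**Figure D4:**
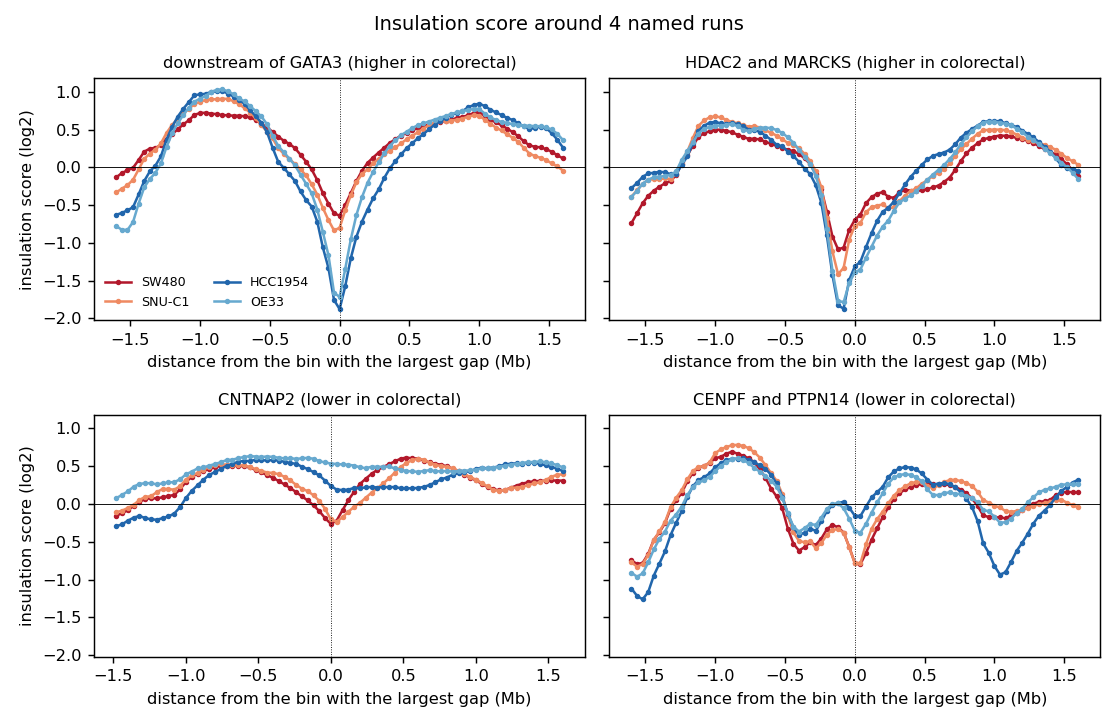
Insulation score, log2, within 1600 kb of the bin with the largest gap of 4 runs, 1 line a map, with the distance from that bin in Mb on the horizontal axis. The minimum beyond GATA3 is at -1.88 and -1.72 in HCC1954 and OE33 and at -0.64 and -0.80 in the colorectal maps, and at CNTNAP2 a minimum is seen in the colorectal maps and not in OE33.

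Boundaries, the minima of insulation, numbered from 2409 in OE33 to 2647 in SNU-C1. Both colorectal maps shared 2068, of which 1539 (74.4%) were in all 4 maps. Only 130 were in both colorectal maps and within 2 bins of none in the others (6.29% of the shared ones), and 83 of the 1874 shared by HCC1954 and OE33 were absent from the colorectal maps (4.43%). The SW480 replicates, made from 1 line, lacked 135 of 2518 and 131 of 2514 boundaries of each other, or 5.36% and 5.21%. Those shares compare 1 map with 1 other and the shares of a side compare 2 maps with 2 others, so they are not alike in form. The boundaries of one side were shallow, with a median score of -0.28 and -0.31 in the colorectal maps at their own boundaries, against -0.50 and -0.52 at those of all 4 maps. They were not level in the other maps either, with -0.20 in HCC1954 and -0.18 in OE33. Of the 130, 35 (26.9%) lay in bins whose insulation was separated in the lower direction, and of the 83, 21 (25.3%) in bins separated in the higher direction, where 8.39% and 7.58% of all scored bins were. Since boundaries were chosen on the same score, nothing is read from these shares.

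A match to the core of the CTCF motif, CC, any 3 bases and then AGGNGGC, on either strand, was in 50% of the 40-kb bins with a colorectal boundary, in 56.6% of those of HCC1954 and OE33, in 58.9% of those of all 4 maps and in 50.1% of all scored bins. A gene start was in 30%, 37.3%, 39.8% and 19.9% of these bins. A match is a string of letters and not a bound site, and a 40-kb bin is wide against it.

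Among boundaries of the colorectal side, the 5 with the largest difference of mean score had differences of -0.34 to -0.43. The nearest protein-coding gene starts were KHDRBS3, FAM181B, PPP2R3A, ASF1A and DCC, at distances from 35.4 kb to 1250 kb. At the boundary nearest to FAM181B the sides differed by less than the limit for bins, with -0.25 in SW480 beside -0.20 in HCC1954. At PPP2R3A on chromosome 3, a regulatory subunit of protein phosphatase 2A, the scores were -0.97 in SW480 and -0.85 in SNU-C1 against -0.49 in HCC1954 and -0.59 in OE33, with coverage between 1.30 and 1.43. At DCC, the netrin receptor gene whose name comes from its loss in colorectal cancer, the boundary lay inside the gene, 573 kb from its start, at -0.029 and -0.078 against 0.29 and 0.29.

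Among boundaries of HCC1954 and OE33 the 5 largest differences were 0.39 to 0.54. The first lay at chr14:62600001-62640000, at -0.85 in HCC1954 and -1.01 in OE33 against -0.39 and -0.39 in SW480 and SNU-C1. The others were nearest to IRX1 (356 kb from its start), ALCAM (806 kb), GHITM (19.2 kb) and OR5G3 (in the same bin). At the boundary nearest to ALCAM, an adhesion molecule of leukocytes and epithelia, the scores were 0.22 and 0.19 in SW480 and SNU-C1 against -0.15 in HCC1954 and -0.40 in OE33. At the boundaries nearest to IRX1 and OR5G3 the sides did not part cleanly, since at the first OE33 scored 0.42, as high as the colorectal 0.50 and 0.35, and at the second HCC1954 scored -0.282 beside -0.275 in SW480.

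**Figure D5:**
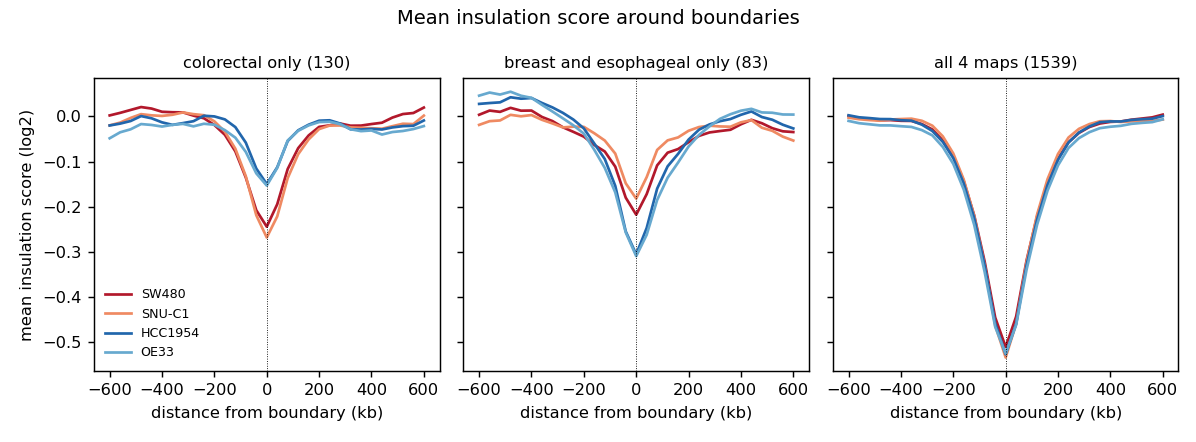
Mean insulation score, log2, within 600 kb of the boundaries of the colorectal side (130), of HCC1954 and OE33 (83) and of all 4 maps (1539), 1 line a map. The boundaries of one side are shallow in the maps that have them and shallower still, but not flat, in the others, while those of all 4 maps reach about the same depth in each.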

How the data were processed

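In situ Hi-C maps of SW480, SNU-C1, HCC1954 and OE33 were compared, with the SW480 replicates as a measure of spread. Reads had been aligned by the authors to hg19 (BWA-MEM), rid of duplicates (Picard) and turned into iteratively corrected matrices. Each deposited value is a signal, namely the corrected frequency of contact between a pair of 40-kb bins. The SW480 maps had been corrected within each chromosome and the others over the genome, so whole read pairs were recovered first (100% of values up to 20.5 read pairs were whole within 0.02) and corrected again in 60 rounds, in the same way for every map. Versions and read filters of that processing are not given in these sources.

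Contacts between chromosomes, on X or Y and within a bin were left out. Expected values were means at each distance, smoothed over 10% of the distance beyond 5 Mb. Blocks needed 3 of 5 usable bins. Compartments A and B came from an eigenvector of the mean map of the 4 lines, taken for each chromosome. Of the first 3 eigenvectors, the one that correlated most strongly with gene density was used, and gene density also set its sign. Scores left out contacts nearer than 2 Mb and block pairs with at least 4 times the expected contacts and 10 read pairs. Boundaries needed a strength of at least 0.1 with a delta window of 200 kb.

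Named runs were, in each direction, the 10 with the largest gap and up to 3 protein-coding genes nearest their peak, besides every list gene in a separated block or bin and the 5 boundaries a side with the largest difference. Values of 2 list genes are not reported here, although the counts of their lists include them. Genes came from the GENCODE annotation on GRCh37, and all 22 autosome lengths equalled those of the bins. The members, lists and rules were chosen with earlier results of these data known. The scoring was tested on simulated maps. Replicate maps of SW480 are separate samples in the labels, and the study's text speaks of biological replicates of its cell lines without saying how the cultures were kept apart. Alternatives changed the values used (as deposited, thinned), the usable bins, the scaling, the expected values, the limits and the lines. The work was done in Python 3.11.15 with pandas 2.3.3, NumPy 2.4.6, SciPy 1.17.1 and Matplotlib 3.10.9.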

Additional observations from a re-analysis of the deposited data

How the results depend on the processing

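No paired analysis was possible because each side has 1 map of each of 2 lines, numbered in accession order only. All 20 named compartment runs and all 20 named insulation runs kept their direction and stayed past the limit wherever they could be scored (17 and 14 of them with usable bins at 0.5 of the median). Of these settings, any gap, a gap at the 99th percentile and a line left out could not have ended a call. The 99th percentile was 0.293 for blocks and 0.083 for bins, below the gap of every named run. Counts of blocks, bins and boundaries stayed within 1.5 times the values reported with thinned read pairs, with stricter usable bins and with either SW480 replicate in place of the pool.

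Counts that moved further were the following. Blocks higher in the colorectal maps were 961 with each map's own eigenvector, 719 with ranks, 3747 with any gap and 1089 with a gap at the 99th percentile. Blocks lower in them were 1788 with any gap. Switches were 103 to A and 169 to B with ranks. Scoring by ranks and centring on the mean were chosen after seeing the data, and they moved the share of higher calls from 65.03% to 46.4% and 49.5%. Insulation bins were 10281 higher and 11001 lower with any gap, and 8901 lower with the values as deposited. Why the deposited values gave more was not tested.

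With 1 line left out, the rule asks for agreement of fewer maps, so every count of blocks, switches, bins and boundaries over the genome rose. Higher blocks ranged from 2581 (without SNU-C1) to 4289 (without SW480), and lower ones from 1675 (without SW480) to 1973 (without OE33). Switches to A ranged from 335 to 547 and to B from 436 to 580. Insulation bins ranged from 9242 to 14207 higher and from 9658 to 13662 lower. Boundaries of the colorectal side ranged from 277 to 402 and those of the other side from 200 to 341. These counts therefore rest on which 2 lines stand for each side. Depth also limits the scores, and the smallest gaps counted rest on the SW480 replicates alone. These held 60526290 and 61796287 read pairs between usable bins, fewer than each map compared. Each line but SW480 has 1 map, so the spread within the other lines is not known.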

Other observations

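The share of blocks separated in either direction varied between chromosomes. Chromosome 17 had the lowest shares, with 4.49% of its 356 blocks higher and 2.53% lower in the colorectal maps, and chromosome 9 had the highest share of higher blocks, 18.4% of 533. Chromosome 10 had the highest share of lower blocks, 9.45% of 614. Chromosome 13 had 57 higher and 12 lower blocks of 351, and in the blocks of CDX2, OLFM4, KLF5 and TNFRSF19 there coverage was 2.08 to 2.82 times the median in SNU-C1 and 0.85 to 2.30 times in SW480. On chromosome 4, 9 blocks switched to A and 32 to B, and on chromosome 6, 14 and 28, while on chromosome 15, 14 switched to A and 6 to B. These shares are descriptions, and neighbouring blocks are not independent.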
